A study of Mus musculus with 9 samples.

Results

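CdxKO and T/BraKO caudal epiblast-like cells (CEpiLCs) were compared directly with each other. The comparison used 6 of the 9 RNA-seq libraries of the series, 3 of each mutant, chosen by the genotype in their labels, and the 3 wild-type (WT) libraries served as the reference that shows which mutant had departed. CdxKO cells carried Cdx1/2/4-/-, that is, mutations in all 3 caudal-type homeobox genes. T/BraKO cells carried T/Bra-/-, a mutation in T, which encodes BRACHYURY. All 3 groups received the same treatment and were collected at 72 h. The cells were mouse embryonic stem cells held for 2 days in N2B27 medium with basic FGF at 10 ng per ml and LGK974 at 5 uM, a blocker of WNT secretion, after which CHIR99021, a GSK3 inhibitor that switches on WNT signalling, was added until day 3.

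CDX proteins and BRACHYURY are both transcription factors of the caudal epiblast, the progenitor region at the posterior end of the embryo that lays down the trunk. CDX factors are known for activating central and posterior Hox genes and so for giving cells a trunk address, while BRACHYURY is known for driving exit into mesoderm through genes such as Tbx6 and Msgn1. Loss of either truncates the body axis. A direct comparison asks which genes separate these 2 mutants, and the comparison with WT then asks whether a gene was moved by the loss of 1 factor or was pushed in opposite directions by the 2 losses.

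Each genotype is represented by a single line in the labels, so a difference between lines and the effect of the mutation cannot be told apart. According to the study's methods, all lines came from an XY parental line and the mutants had been made for an earlier study. Y-linked genes were nonetheless at or near 0 counts in CdxKO. The helicase gene Ddx3y had 0 counts in every CdxKO library, 1664 to 1769 normalised counts in WT and 2117 to 2754 in T/BraKO, and all 7 tested genes of the Y chromosome were lower in CdxKO relative to T/BraKO. Hprt, which encodes a purine salvage enzyme, stood at 3590, 4086 and 4138 normalised counts in T/BraKO and at 20.5 to 25.1 in CdxKO and 16.8 to 28.1 in WT. The lines therefore also differed at genes outside the named mutations, and the part of such differences in the results was not tested.

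The targeted genes were lower in the mutants that the labels name, though only Cdx4 was near 0. T had 1777, 2214 and 2894 normalised counts in T/BraKO replicates 1, 2 and 3 and 13928, 6285 and 19806 in CdxKO. Cdx2 had 1625, 706 and 761 in CdxKO and 7541, 3653 and 4868 in T/BraKO. Cdx4 was at 1.25, 1.79 and 1.88 in CdxKO, under the floor of 3 counts, and at 225, 117 and 183 in T/BraKO. The libraries of the 2 mutants did not overlap for any of these genes, and Cdx1 did not overlap either. A normalised count is a library's count divided by its size factor, and libraries held 25124337 to 34705355 counts. The positions of the edits are not given in the sources used here, so the reads that remain cannot be assigned to an intact or an edited transcript.

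Markers of the intended cell type were present in both mutants. Their summed level in TPM, a length-corrected share of a library's transcripts, over T, Cdx2, Nkx1-2, Fgf8, Wnt3a, Wnt8a, Cyp26a1 and Sp5 was 719 to 1196 in CdxKO and 857 to 1214 in T/BraKO, against 1119 to 1325 in WT. The sum includes T and Cdx2, which are targeted genes. Of the 8, T and Fgf8 were higher in CdxKO than in T/BraKO, and Cdx2, Nkx1-2, Wnt8a and Sp5 were lower. Markers of other cell types also differed between the mutants, in part. Of 8 squamous epithelium markers 4 were higher in CdxKO than in T/BraKO, and of 10 blood and endothelium markers 3 were. Of 9 trophoblast markers 2 were higher and 1 was lower, and of 6 fibroblast markers 3 were higher and 1 was lower. Among 9 primitive endoderm markers 1 was higher, among 6 cardiac markers 1 was lower, and none of 7 2-cell-like markers was called. Over all genes tested, 14.6% were called. The squamous epithelium markers summed to 154 to 506 TPM in CdxKO and 102 to 219 in WT but to 3.44 to 5.57 in T/BraKO, with Krt6a at 0 in CdxKO and WT. The 4 squamous calls were all small proline-rich protein genes, Sprr1a, Sprr2a1, Sprr2a2 and Sprr2a3. Of these, Sprr2a1 and Sprr2a2 held identical counts and are not separate signals. The other squamous markers, Krt5, Krt14, Krt6a and Trp63, were not called. The trophoblast markers summed to 452 to 798 TPM in CdxKO, 167 to 610 in T/BraKO and 258 to 532 in WT, with Elf5, a defining marker, at 0 in both mutants. The part of such cells in the results was not tested, and in bulk RNA fewer cells of a type and less RNA per cell cannot be told apart.

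In all, 2187 of the 14936 genes tested, 14.6%, differed between CdxKO and T/BraKO. Of these, 1157 (7.75% of the genes tested) were higher in CdxKO and 1030 (6.9%) were lower. The call was an adjusted p of at most 0.05 in DESeq2's Wald test with Benjamini-Hochberg adjustment and the replicate number as a block. Among the 2187 genes, 352 differed by more than 2-fold and the median absolute log2 fold change was 0.38. All 3 libraries of a mutant lay above or below all 3 of the other for 1143 of them, against 8.17% of all tested genes with CdxKO above and 7.12% with CdxKO below. Without the block, 404 genes were higher and 154 lower.

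The genes that separated the mutants were divided by which mutant was called against WT. Only T/BraKO was called against WT for 712 genes, 32.6% of those that separated the mutants and 4.77% of the genes tested, of which 395 (2.64%) were higher and 317 (2.12%) lower in CdxKO. Only CdxKO was called for 387 genes, 17.7% of those that separated the mutants and 2.59% of the genes tested, of which 232 (1.55%) were higher and 155 (1.04%) lower in CdxKO. Both were called in opposite directions for 83 genes (0.556% of the genes tested), 60 of them higher (0.402%) and 23 lower (0.154%) in CdxKO, and in the same direction for 17 (0.114%). The remaining 988 genes (6.61%) differed between the mutants but neither mutant was called against WT, and their median absolute log2 fold change was 0.29. For 72 of the 988, 1 or both mutants received no adjusted p against WT and so could not be called. The 3 comparisons share libraries, and against WT alone CdxKO had 736 called genes (5.31%), 3.4% of those tested being higher and 1.91% lower. T/BraKO had 1237 (9.68%), with 4.83% higher and 4.85% lower.

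**Figure D1:**
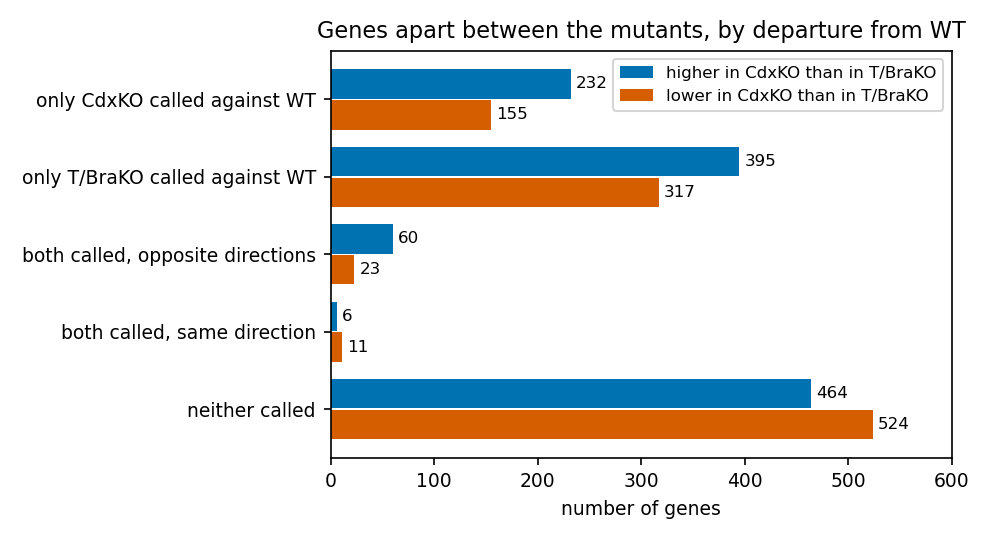
Number of genes that differed between CdxKO and T/BraKO, split by which mutant was called against WT and coloured by direction. T/BraKO alone accounts for 395 and 317 genes and CdxKO alone for 232 and 155, while 60 and 23 genes departed in opposite ways.

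A missing call does not show that a gene stayed at the WT level, so the interval of the uncalled mutant was also read. Among the 387 genes called in CdxKO only, the 95% interval of T/BraKO against WT stayed within 1.5-fold either way for 323. Among the 712 genes called in T/BraKO only, the interval of CdxKO stayed within 1.5-fold for 593. For 11 of the 387 genes, all with low counts, T/BraKO received no adjusted p against WT, and Hoxa5, Hoxc5 and Hoxd4 were among them. In the genes called in T/BraKO only and higher in CdxKO, the median log2 fold change of CdxKO against WT was 0.06.

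**Figure D2:**
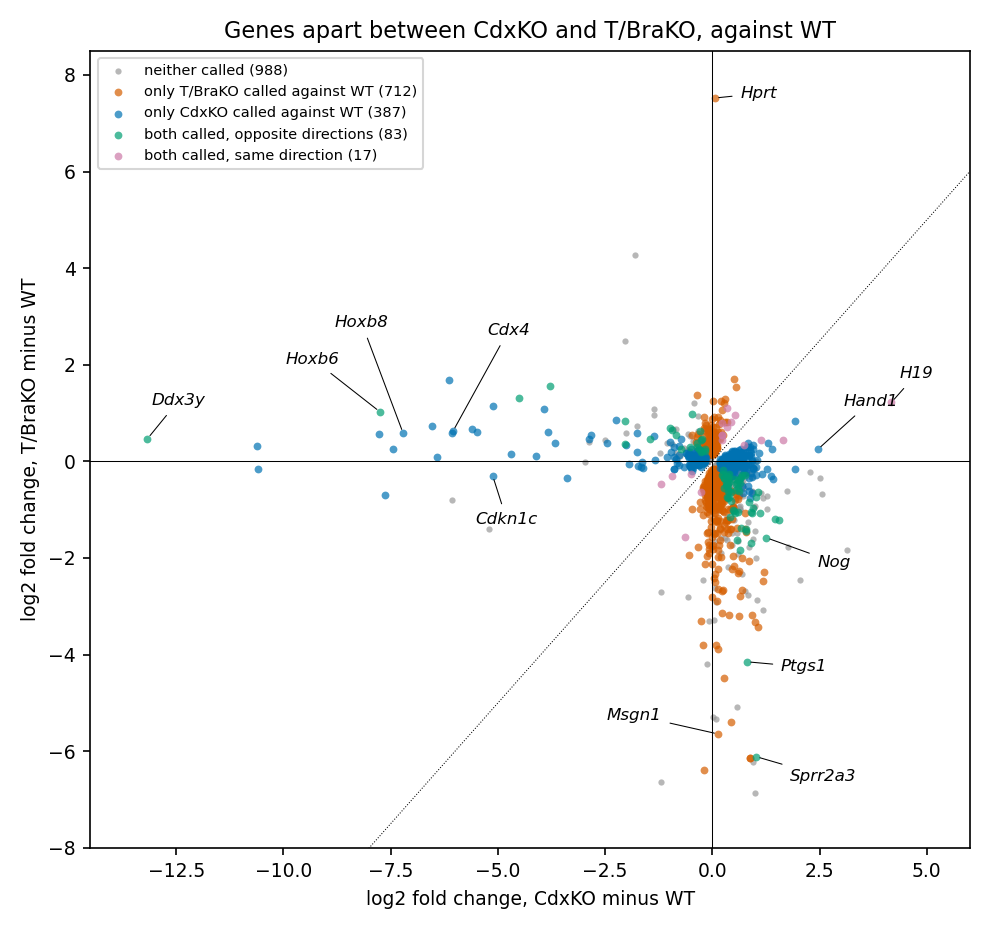
Log2 fold change of each of the 2187 genes in CdxKO (x axis) and T/BraKO (y axis), both against WT, with the dotted line marking equal change. Genes called in 1 mutant spread along an axis, and the genes called in opposite ways lie at the upper left and lower right. Estimates for genes near 0 counts, such as Ddx3y, depend on the model and are not measured folds.

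Hox genes were low in CdxKO. These genes encode the homeodomain proteins that give axial position, and lower numbers mark more anterior domains. Of the trunk Hox genes of groups 6 to 9, 9 of 12 could be tested, 7 were lower in CdxKO relative to T/BraKO and none was higher. Of those 7, 5 were called in CdxKO only, Hoxb6 was called in both mutants in opposite ways and Hoxa7 in neither. The median log2 fold change of the 9 was -6.10, or -4.71 with genes at the floor set to their bound, against -0.01 over all genes tested. Counts for this and the following lists stand beside 7.75% higher and 6.9% lower over all genes tested.

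The promoter of Hoxb8 is shown because Hoxb8 was among the Hox genes that fell furthest in CdxKO, and that of Msgn1 because it was the mesoderm regulator with the widest difference in the presomitic list. The windows run from 250 bases before to 50 after the gene start and come from RefSeq on GRCm38.p6, at chr11:96281655-96281954 on the plus strand for Hoxb8 and chr12:11208899-11209198 on the minus strand for Msgn1. Capitals mark matches to TTTATG, a core of the CDX motif, or its reverse complement CATAAA.
Hoxb8: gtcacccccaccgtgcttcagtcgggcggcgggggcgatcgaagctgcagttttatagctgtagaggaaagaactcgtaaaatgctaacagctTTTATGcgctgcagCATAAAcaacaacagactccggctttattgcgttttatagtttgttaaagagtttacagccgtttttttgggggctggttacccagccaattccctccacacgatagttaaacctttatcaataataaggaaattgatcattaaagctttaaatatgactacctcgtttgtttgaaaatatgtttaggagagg
Msgn1: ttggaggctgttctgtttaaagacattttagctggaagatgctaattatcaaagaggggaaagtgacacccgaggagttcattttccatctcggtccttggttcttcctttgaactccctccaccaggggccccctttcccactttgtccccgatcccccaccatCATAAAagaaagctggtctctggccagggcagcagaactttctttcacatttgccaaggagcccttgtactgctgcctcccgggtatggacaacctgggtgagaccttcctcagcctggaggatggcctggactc
The Hoxb8 window held 2 matches, at -157 and -143 from the start, and the Msgn1 window held 1 at -85. Across 32851 promoters of this length, 11.9% held a match on either strand, as did 6.31% of the promoters of tested genes. GGTGTGA, a core of the T-box motif, or its reverse complement TCACACC was in neither window and in 3.98% of all promoters. A match describes the letters only and is no evidence of binding.

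Hoxb8 (chromosome 11, 96281905 to 96285315) had 7.52, 2.68 and 2.82 normalised counts in CdxKO replicates 1, 2 and 3. In T/BraKO it had 1775, 290 and 887, and in WT 1415, 135 and 677. Every T/BraKO library was above every CdxKO library, and T/BraKO and WT overlapped. Hoxb8 was 221-fold higher in T/BraKO than in CdxKO in the fit, from which all folds not given as bounds were taken (log2 fold change of CdxKO minus T/BraKO -7.79, SE 0.57, DESeq2 adjusted p 1.45e-39).

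Hoxb9 had 30.1, 25.9 and 12.2 normalised counts in CdxKO and 5157, 576 and 2816 in T/BraKO. The CdxKO libraries again lay below all others, and replicate 2 was the lowest library of Hoxb9 in T/BraKO and in WT. The difference in Hoxb9 was 77.3-fold (adjusted p 3.92e-10 by DESeq2). Hoxc8 was at 0 in every CdxKO library and at 204, 15.6 and 75.3 in T/BraKO, at least 26.1-fold higher, where the bound sets CdxKO to 3 counts in its smallest library. Hoxb5 and Hoxc6 were likewise at least 20.9-fold and 19.2-fold higher in T/BraKO. The RNA gene Hoxaas3, which lies among the Hoxa genes, was at 0 in CdxKO and at 128, 11.9 and 43.1 in T/BraKO.

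Hoxb6 was the Hox gene of this group that departed in both mutants. It had 1.25, 0 and 0 normalised counts in CdxKO, 222, 18.4 and 95.1 in WT and 395, 49.5 and 188 in T/BraKO. Each T/BraKO library exceeded the WT library of the same replicate number, with a log2 fold change of 1.02 against WT (DESeq2 adjusted p 0.00146). T/BraKO was at least 56.1-fold above CdxKO, and Hoxb6 was called in opposite ways in 8 of 16 alternative settings.

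The anterior Hox genes of groups 1 to 5 split within the list. Of 14 that could be tested, 9 were lower in CdxKO relative to T/BraKO and 2 were higher, with 9 called in CdxKO only. Those that were lower began at group 3. Hoxa3 had 26.3, 7.14 and 5.64 normalised counts in CdxKO against 398, 105 and 201 in T/BraKO, and Hoxb3 and Hoxb4 were lower by log2 fold changes of -2.85 and -2.35. Hoxb1 went the other way. Hoxb1, an early WNT-responsive and retinoid-responsive Hox gene, had 3803, 1317 and 2533 in CdxKO, 2106, 994 and 1207 in WT and 888, 390 and 399 in T/BraKO, with no overlap between the mutants. It was called up in CdxKO and down in T/BraKO, and the mutants differed by a log2 fold change of 2.18 (SE 0.20, DESeq2 adjusted p 8.68e-26).

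Hoxb2, a hindbrain Hox gene, did not pass the test (log2 fold change 0.10, adjusted p 0.74). The counts for trunk Hox genes ranged from 6 to 8 lower across the alternatives, and those for anterior Hox genes from 7 to 9.

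**Figure D3:**
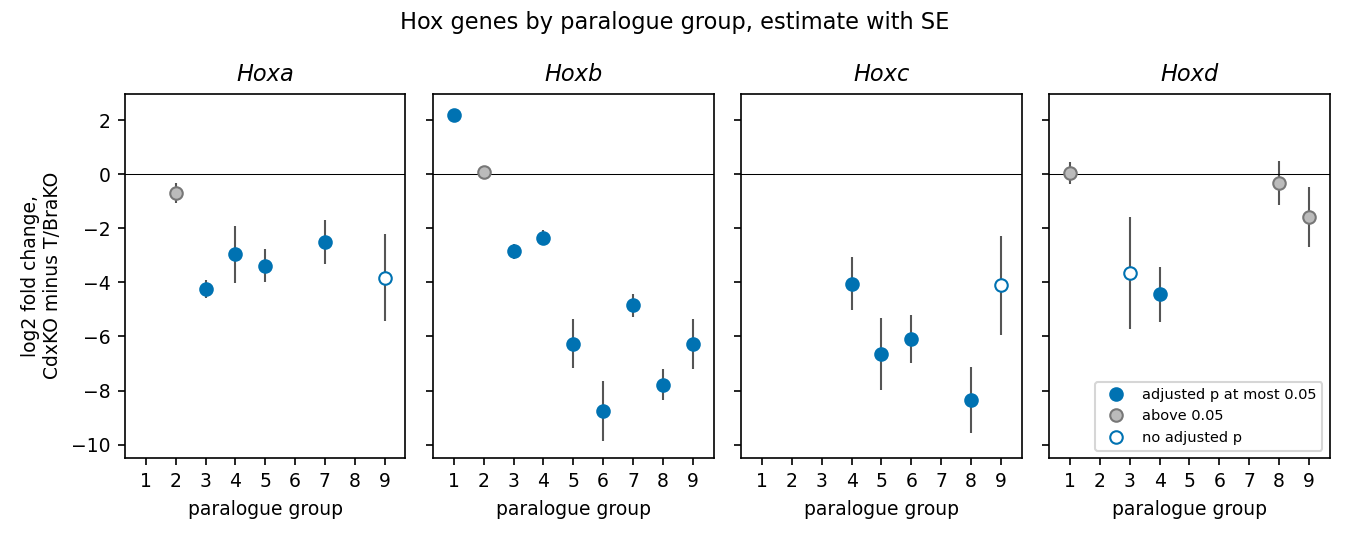
Log2 fold change of CdxKO minus T/BraKO with its standard error for the Hox genes shown, by cluster and paralogue group. The group 1 and 2 genes shown lie between -0.69 and 2.18, whereas the called genes from group 3 onwards lie at -2.35 or below. Values for genes near 0 counts in CdxKO depend on the model.

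Among the partners of Hox proteins, Meis2 stood out. Meis2 encodes a homeodomain cofactor, and it had 609, 602 and 245 normalised counts in CdxKO, 208, 142 and 131 in WT and 72.8, 65 and 66.4 in T/BraKO. The 3 genotypes did not overlap, with CdxKO the highest. It differed 6.72-fold between the mutants (log2 fold change 2.75, SE 0.23, DESeq2 adjusted p 1.42e-30), and it was called in opposite ways in 15 of 16 alternative settings. Of the other 8 Hox cofactors tested, Pbx2 was higher in CdxKO, Meis3 and Pknox1 were lower, and 5 did not pass the test. Without the block no cofactor was lower.

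Presomitic mesoderm genes set T/BraKO apart. These genes mark the tissue that segments into somites. Of 14 that could be tested of 17 listed, 7 were higher in CdxKO relative to T/BraKO and none was lower, and 5 of the 7 were called in T/BraKO only. The median log2 fold change was 0.82. Without the block, 4 of the 16 members then tested were higher, and without the libraries of replicate 1 there were 4 higher and 1 lower.

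Msgn1 encodes a transcription factor of the presomitic mesoderm. It had 339, 54.5 and 219 normalised counts in CdxKO, 219, 128 and 114 in WT and 3.31, 1.83 and 4.48 in T/BraKO. CdxKO and WT overlapped and T/BraKO lay below both. The mutants differed 55.2-fold in Msgn1 (log2 fold change 5.79, SE 0.72, DESeq2 adjusted p 9.93e-14).

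Tbx6, a T-box gene that commits progenitors to paraxial mesoderm, had 293, 67 and 122 normalised counts in CdxKO and 17.7, 20.2 and 13.5 in T/BraKO. The lowest CdxKO library of Tbx6 was thus above the highest T/BraKO library, and the fold was 8.19 (adjusted p 4.37e-16 by DESeq2). Rspo3, a secreted enhancer of WNT signalling, had 1437, 411 and 847 in CdxKO against 355, 193 and 399 in T/BraKO. Dll1, a Notch ligand, had 1125, 705 and 664 against 459, 323 and 348. Neither Rspo3 nor Dll1 overlapped between the mutants, and they differed by log2 fold changes of 1.39 and 1.12.

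Not every gene of the presomitic list followed. Hes7, a segmentation clock repressor, was lower than WT in both mutants by a log2 fold change of -0.90 in each, and the mutants did not differ (log2 fold change -0.01, SE 0.21, adjusted p 0.99). Aldh1a2, which makes retinoic acid, was called in CdxKO only, at 499, 157 and 114 normalised counts against 114, 94.3 and 51.1 in T/BraKO and 221, 127 and 77.4 in WT. Rdh10, an earlier enzyme of the same synthesis, was also called in CdxKO only and was higher by 0.64 on the log2 scale, while the retinoic acid receptor gene Rarg was lower by -0.70. In the whole retinoic acid list, 3 of 11 tested genes were higher in CdxKO and 1 was lower. Without the block or without replicate 1, 1 and 0 were higher.

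**Figure D4:**
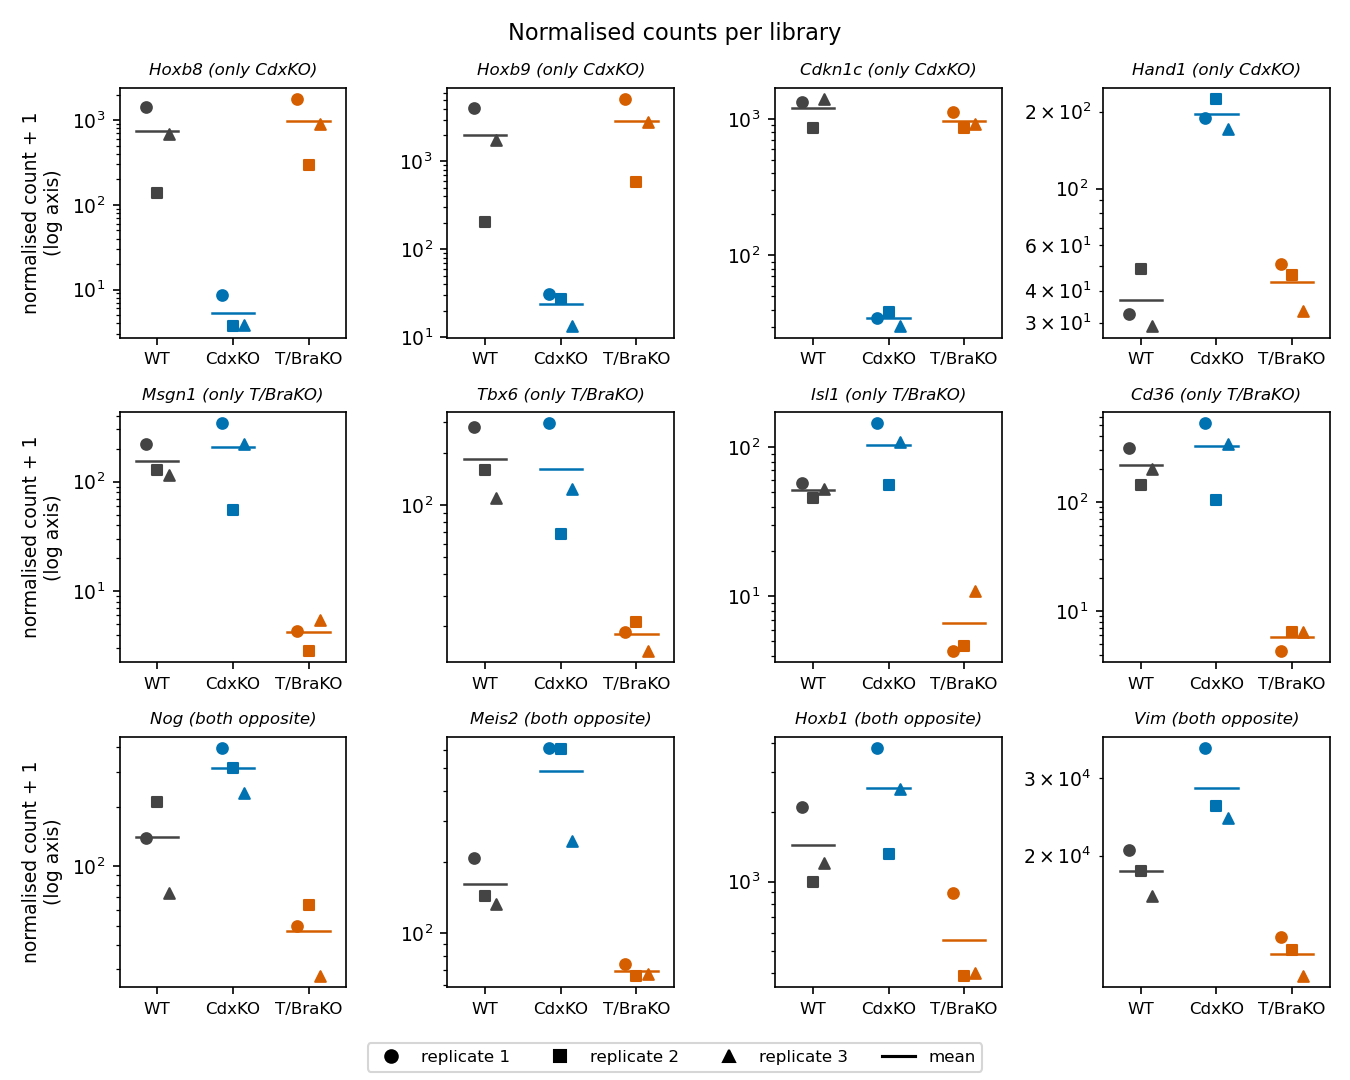
Normalised count plus 1 (log axis) of 12 genes in each library, with a bar at the mean and a symbol for the replicate number. In the top row CdxKO stands away from WT and T/BraKO, in the middle row T/BraKO stands away from WT and CdxKO, and in the bottom row the mutants lie on either side of WT.

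Genes of the caudal epiblast leaned towards T/BraKO. Of 14 tested, 9 were lower in CdxKO relative to T/BraKO and 1 was higher, with a median log2 fold change of -0.62. Without the block, 5 were lower and 1 was higher. Their class differed from gene to gene. Wnt8a, a WNT ligand of the streak, fell in CdxKO only, at 3046, 2615 and 2541 normalised counts against 6098, 3757 and 5651 in T/BraKO and 5015, 4566 and 4401 in WT. The growth factor gene Gdf11 and the steroid-responsive gene Greb1 were also called in CdxKO only, at log2 fold changes of -0.90 and -0.57 between the mutants.

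Other caudal genes rose in T/BraKO only. Fgf17, a fibroblast growth factor gene, had 362, 464 and 416 normalised counts in T/BraKO against 211, 186 and 244 in CdxKO and 224, 209 and 293 in WT. Sp5, a WNT-induced zinc finger gene, had 5385, 5097 and 4844 against 3252, 3676 and 2709 in CdxKO. For Fgf17 and Sp5 every T/BraKO library exceeded every CdxKO and WT library. Evx1 and Sp8 were also called in T/BraKO only.

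Nkx1-2 and Wnt5a departed in both mutants. Nkx1-2, a homeobox marker of the caudal epiblast, had 7169, 4902 and 5954 normalised counts in CdxKO and 11263, 7541 and 10888 in T/BraKO. For Nkx1-2 the log2 fold change against WT was -0.27 in CdxKO and 0.45 in T/BraKO. Wnt5a, a WNT ligand of axis elongation, had 770, 251 and 745 in CdxKO and 1792, 563 and 2472 in T/BraKO. Its mutant libraries overlapped, but within each replicate number T/BraKO was the higher, and the difference was -1.39 on the log2 scale (SE 0.11, DESeq2 adjusted p 2.95e-33).

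Fgf8, the growth factor gene of the caudal epiblast, was the exception in direction. Its normalised counts were 857, 642 and 677 in WT, 547, 317 and 556 in CdxKO, and 195, 233 and 309 in T/BraKO. Both mutants were below WT without overlap, and CdxKO exceeded T/BraKO by 0.91 on the log2 scale (SE 0.17, DESeq2 adjusted p 3.59e-06). Wnt3a was lower than WT in both mutants and did not separate them (log2 fold change -0.29, adjusted p 0.64).

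Cdx1 and Cdx2 were lower in CdxKO and higher in T/BraKO than in WT. Cdx1 had 302, 320 and 193 normalised counts in CdxKO, 444, 626 and 539 in WT and 786, 1021 and 784 in T/BraKO. Against WT, T/BraKO was higher by log2 fold changes of 0.68 for Cdx1 and 0.37 for Cdx2, while Cdx4 at 0.62 did not pass the test (DESeq2 adjusted p 0.0965). T did not pass in CdxKO against WT (log2 fold change 0.04, adjusted p 0.98).

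WNT feedback genes that separated the mutants were higher in T/BraKO. Of 13 WNT targets and feedback genes tested, 5 were lower in CdxKO relative to T/BraKO and none was higher, and 4 of the 5 were called in T/BraKO only. Notum, which encodes a secreted WNT inhibitor, had a log2 fold change of -0.55 between CdxKO and T/BraKO. Axin2, a common readout of the pathway, had one of -0.19 with overlapping libraries (DESeq2 adjusted p 0.045). The differences of Axin2 and Dkk1 lost their calls in 12 and 13 of 17 alternative settings. Sp5 and Sp8 were also among the 5 and had been counted in the caudal epiblast list. Only 1 of the 13 was called without the block. Among the FGF-ERK feedback genes, Dusp4 was higher and Etv4 lower in CdxKO, and 8 of 10 did not pass the test.

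BMP genes leaned towards CdxKO. Of 13 BMP ligands and response genes, 5 were higher in CdxKO relative to T/BraKO and 1 was lower. Without the block, 2 were higher and 1 was lower. Nog, which encodes the secreted BMP antagonist noggin, had 395, 313 and 232 normalised counts in CdxKO, 138, 210 and 71.8 in WT and 48.5, 62.3 and 26.9 in T/BraKO. The 3 genotypes did not overlap for Nog. It was called in opposite ways, and the mutants differed 7.10-fold (log2 fold change 2.83, SE 0.24, DESeq2 adjusted p 1.93e-28).

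The ligand gene Bmp4 followed the same order at a smaller size, with 302, 289 and 217 normalised counts in CdxKO and 121, 169 and 83.4 in T/BraKO. For Bmp4 the log2 fold changes against WT were 0.59 and -0.55 (DESeq2 adjusted p 0.0240 and 0.0395), and it was called in opposite ways in 5 of 16 alternative settings. Id1, a direct BMP target, was higher in CdxKO by 0.55 on the log2 scale, with neither mutant called against WT. Msx1, a homeobox target of BMP signalling, ran against the list, at 61.4, 44.6 and 45.1 in CdxKO and 304, 78.8 and 157 in T/BraKO, and was called in CdxKO only.

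Lateral and extraembryonic mesoderm genes came from both single-mutant classes. Of 14 tested, 5 were higher in CdxKO relative to T/BraKO and 1 was lower. Hand1, a basic helix-loop-helix gene of this mesoderm, rose in CdxKO only. It had 188, 223 and 170 normalised counts in CdxKO against 49.6, 44.9 and 32.3 in T/BraKO and 31.5, 47.4 and 28 in WT. The CdxKO libraries lay above all others, and the mutants differed 4.63-fold (log2 fold change 2.21, SE 0.26, DESeq2 adjusted p 3.21e-15).

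Isl1, a LIM-homeodomain gene of cardiac and limb progenitors, fell in T/BraKO only. It had 3.31, 3.66 and 9.87 normalised counts there, 143, 54.5 and 107 in CdxKO and 56.3, 44.5 and 51.3 in WT. The difference in Isl1 was 17.2-fold. Kdr and Etv2, which mark the haemato-endothelial lineage, were also called in T/BraKO only, but their differences between the mutants lost the call in 10 and 6 of 17 alternative settings. Without the block, 4 genes of the lateral mesoderm list were higher and 1 was lower. The 10 blood and endothelium markers summed to 50.5 to 77.9 TPM in T/BraKO and 75.1 to 112 in CdxKO.

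Genes of epithelial-mesenchymal transition were called in part. Vim, which encodes the intermediate filament vimentin, had 35045, 25945 and 24378 normalised counts in CdxKO, 20603, 18469 and 16229 in WT and 13067, 12244 and 10698 in T/BraKO. Vim was the only gene of the 83 that was called in opposite ways in every one of the 16 alternative settings. Its log2 fold change was 0.62 in CdxKO and -0.62 in T/BraKO against WT, and 1.23 between the mutants (SE 0.06, DESeq2 adjusted p 3.13e-83). Fn1, encoding fibronectin, was called in CdxKO only, and so was the epithelial tight-junction gene Cldn7, whose difference (log2 fold change 0.32) lost its call in 12 of 17 alternative settings. The epithelial genes Cdh1 and Epcam and the mesenchymal genes Snai2, Twist1 and Zeb2 did not pass the test between the mutants. In the list, 6 of 14 were higher in CdxKO, of which 1 without the block and 2 without replicate 1.

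The early streak list had 3 of 11 genes lower in CdxKO and the endoderm and notochord list 3 of 6 higher. Eomes, an early streak T-box gene, rose in T/BraKO only, with 455, 511 and 1083 normalised counts against 273, 131 and 511 in CdxKO. Eomes was higher in T/BraKO within each replicate number, although the mutant libraries overlapped. Foxa2, an endoderm and notochord regulator, fell in T/BraKO only, at 55.2, 46.7 and 215 against 291, 155 and 555, and its mutant libraries overlapped too. Olig3 was the only call among 11 neural genes and Zfp42 the only call among 12 naive pluripotency genes, shares of 9.09% and 8.33% that lie under the 14.6% called over all genes tested. Sox2 and Sox3 did not pass the test (log2 fold changes -0.02 and 0.07). Of 10 epiblast genes, Pou5f1, Fgf5, Dnmt3b and Lin28a were lower in CdxKO relative to T/BraKO. The difference of Fgf5 lost its call in 10 of 17 alternative settings, and those of Olig3 and Zfp42 in 9 and 11. Foxh1 and Tdgf1, the other early streak calls, lost theirs in 12 and 8. Without the block, 1 epiblast gene was lower, 1 endoderm gene was higher, and no early streak, neural or naive pluripotency gene was called. In the Notch list, 5 of 13 were higher in CdxKO and 1 was lower, and without the block 2 were higher. Dll1 and Dll3 were among these 5 and had been counted in the presomitic list.

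**Figure D5:**
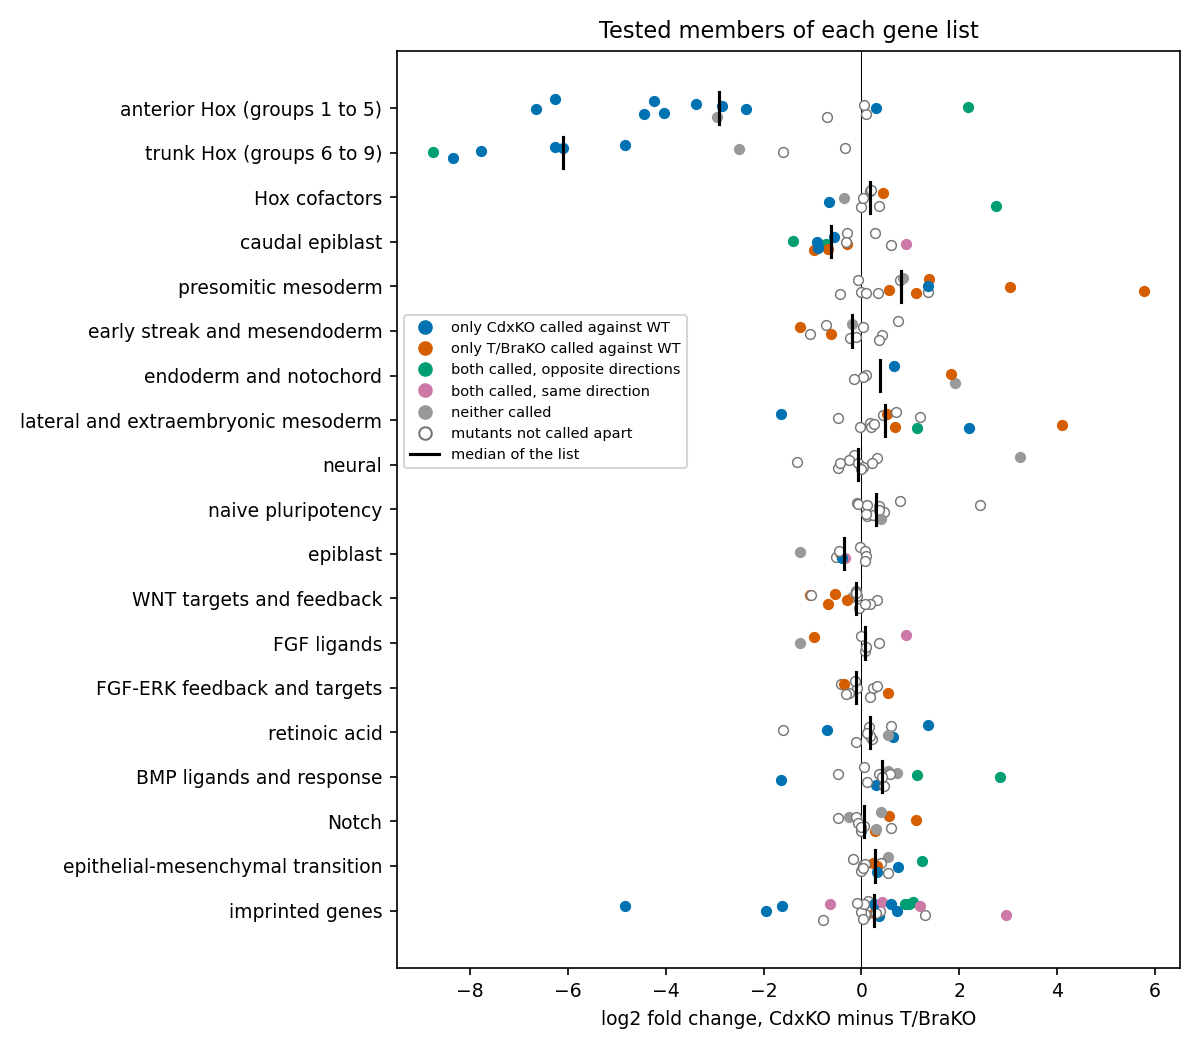
Log2 fold change of CdxKO minus T/BraKO for each tested member of 19 gene lists, coloured by class, with open circles for genes whose mutants were not called apart and a bar at the list's median. The trunk Hox median is -6.10 and the presomitic mesoderm median 0.82, and most other medians lie near 0.

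Imprinted genes, which are expressed from a single parental allele, were called mostly in CdxKO where a single mutant was called. Of 26 tested, 11 were higher and 4 lower in CdxKO relative to T/BraKO, with 7 called in CdxKO only, 1 in T/BraKO only, 3 in opposite ways and 4 in the same way. The growth inhibitor gene Cdkn1c had 33.9, 37.5 and 29.2 normalised counts in CdxKO, 1333, 862 and 1399 in WT and 1128, 854 and 921 in T/BraKO. The CdxKO libraries lay far below the rest, 28.4-fold under T/BraKO (log2 fold change -4.83, SE 0.19, DESeq2 adjusted p 4.33e-133). Phlda2, its neighbour in the same imprinted cluster, and Grb10, an inhibitor of growth factor signalling, were also lower in CdxKO only, by log2 fold changes of -1.62 and -1.95.

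H19, a maternally expressed RNA gene, was at 414, 891 and 314 normalised counts in CdxKO, 33.8, 62.9 and 7.46 in WT and 44.1, 172 and 32.3 in T/BraKO. Both mutants were called above WT, T/BraKO with a DESeq2 adjusted p of 0.048, and CdxKO was 7.74-fold above T/BraKO. Peg3, a paternally expressed zinc finger gene, had 10728, 9270 and 6976 in CdxKO and 4712, 4713 and 3546 in T/BraKO, with WT between them in the fit, at log2 fold changes of 0.76 and -0.29. Imprinted genes of both parental origins were thus among those that separated the lines, and whether this follows the mutation or the line cannot be told apart. Without the block, 5 were higher and 4 lower.

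The other leading genes called in CdxKO only included Ccno, a cyclin gene of multiciliated cells, which had 153, 82.1 and 251 normalised counts in CdxKO and 35.3, 51.3 and 59.2 in T/BraKO. Adgra2, an adhesion receptor gene, had 196, 220 and 191 in CdxKO and 62.9, 107 and 43.9 in T/BraKO. Neither gene overlapped between the mutants, and they differed by log2 fold changes of 1.64 and 1.57.

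Among the genes called in T/BraKO only, the fatty acid receptor gene Cd36 had 3.31, 5.50 and 5.38 normalised counts in T/BraKO, 520, 104 and 340 in CdxKO and 312, 140 and 199 in WT. The membrane protein gene Tmem255a and the vasopressin receptor gene Avpr1b were likewise low in T/BraKO, 26.8-fold and 73.2-fold under CdxKO. Sprr2a1 and Sprr2a2, which encode small proline-rich proteins of squamous epithelia, held identical counts in every library and are uncertain as separate genes. They had 4758, 1472 and 3016 in CdxKO and 36.4, 11 and 23.3 in T/BraKO. Upward departures in T/BraKO were smaller apart from Hprt, and Mab21l2, Chrna9, Slc15a2 and Tfap2c were lower in CdxKO by log2 fold changes of -1.04 to -1.74.

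The 83 genes called in opposite ways separated the mutants more widely than the other classes, with a median absolute log2 fold change of 1.08, although a gene had to be called on either side of WT to enter. Of the 83, 60 were up in CdxKO and down in T/BraKO, 23 the reverse, and 75 did not overlap between the mutants. The prostaglandin synthase genes Ptgs1 and Ptgs2 were both in this class. Ptgs1 had 794, 294 and 546 normalised counts in CdxKO, 372, 288 and 236 in WT and 21, 17.4 and 12.6 in T/BraKO, so most of its difference lay on the T/BraKO side. Ptgs2 had 426, 241 and 308 in CdxKO, 140, 125 and 85.8 in WT and 38.6, 54 and 57.4 in T/BraKO, a 6.28-fold difference between the mutants (DESeq2 adjusted p 7.78e-24).

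Sprr2a3 belonged to the same class but resembled its paralogues Sprr2a1 and Sprr2a2, with 3451, 984 and 1855 normalised counts in CdxKO and 19.9, 9.16 and 13.5 in T/BraKO. In the reverse direction, the ephrin receptor gene Epha5 had 42.6, 19.6 and 35.7 in CdxKO, 249, 32.9 and 194 in WT and 408, 69.6 and 344 in T/BraKO. Lrrc66 and Spata18 are close to each other on chromosome 5 (GRCm38, 73606642 to 73632526 and 73651379 to 73679512) and moved alike. Lrrc66 was at or under 1.79 normalised counts in CdxKO and at 87.2, 85.2 and 57.4 in T/BraKO, and Spata18 had 6.27, 0 and 0.941 against 143, 64.1 and 45.7. For Epha5, Lrrc66 and Spata18 the highest CdxKO library lay under the lowest T/BraKO library.

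Assignment to the opposite class was less stable than the differences between the mutants. Nog kept it in 14 of 16 alternative settings, Hoxb1 in 11 and Ptgs1, Sprr2a3, Epha5 and Peg3 in 8 each. Without the block, 7 genes were in it, namely Vim, Ddx3y, Meis2, Ptgs2, Ripk2, Plod2 and Zc3hav1, all of them among the 83. Without the libraries of replicate 1, which held the highest shares of the ribosomal RNA gene Rn45s (up to 4.21% of counts in CdxKO), 16 of the 83 stayed in it, with Vim, Cdx1, Cdx2, Fzd10 and Col1a1 among them. By contrast, Nog, Meis2, Ptgs1, Hoxb1 and Bmp4 differed between the mutants in each of the 17 alternative settings of the direct comparison.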

How the data were processed

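RNA-seq was carried out by the authors on 9 cultures as strand-specific single-end reads, trimmed with cutadapt 1.16, aligned with STAR 2.5.2a and quantified with RSEM 1.3.0 against RefSeq genes of mm10. The authors deposited expected counts, which RSEM estimates and which need not be whole, and TPM, scaled by RSEM for transcript length within each library. Reads shared between near-identical copies are divided by RSEM, so such copies are uncertain. The deposited TPM values were used only for marker sums.

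The expected counts were rounded and fitted in R 4.3.3 with DESeq2 1.42.0 (Wald test, default size factors, unshrunken fold changes, all 9 libraries, genotype plus replicate number as block, Benjamini-Hochberg adjusted p of at most 0.05). The authors' own analysis used DESeq2 1.16.1. Of 24736 genes, 18902 had a count and 14936 received an adjusted p for CdxKO against T/BraKO. Replicate numbers come from the library titles. The block was kept because the deviations of same-numbered libraries from their group means correlated at 0.532 to 0.814 in all 9 pairs, against -0.690 to 0.134 for different numbers. Deviations cancel out within a group, so positive values for same numbers push those for different numbers down. The latter are therefore not separate evidence. The titles call the libraries biological replicates. The study's methods state in general terms that the data behind its statistics came from independent experiments. They do not say how cultures of the same replicate number were related across genotypes.

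A mutant with all libraries at or under 3 counts was set to that floor, 3.76 normalised counts in CdxKO and 3.31 in T/BraKO, and folds against it are bounds for counting error only. Class leaders were the 5 genes with the largest difference in each of 6 classes, with a mean of at least 50 normalised counts in the higher mutant and no overlap. Members and gene lists were chosen with earlier results of these data known. Lists share genes, such as Aldh1a2, Bmp4, Msx1, Dll1, Dll3, Sp5 and Sp8, so their counts are not separate evidence. Some genes that met these rules are not reported here. Scripts were tested on simulated counts. Coordinates are GENCODE M21 on GRCm38. Alternatives were no block, a filter (10 counts or more in 3 libraries), TMM factors, edgeR 4.0.16, the 6 mutant libraries alone, thresholds of 0.01 on the adjusted p or 1 on the absolute log2 fold change, and leaving out libraries or replicate numbers.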

Additional observations from a re-analysis of the deposited data

Results flagged for a closer look

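The 83 genes called against WT in opposite ways in the 2 mutants, and also called in the direct comparison, were picked out. That direct call adds little separate support, because all comparisons come from the same fit. With effects on opposite sides of WT, the direct difference is the sum of their sizes. The leading genes higher in CdxKO were Sprr2a3 (log2 fold change of CdxKO minus T/BraKO 7.13), Ptgs1 (4.95), Nog (2.83), Meis2 (2.75) and Ptgs2 (2.65). The leading genes lower in CdxKO were Ddx3y (-13.64), Hoxb6 (-8.77), Lrrc66 (-5.82), Spata18 (-5.34) and Epha5 (-2.87), where Ddx3y, Hoxb6 and Lrrc66 were at or under the floor in CdxKO and their estimates depend on the model. Both groups of effects are measured against the same WT libraries. Groups of 3 libraries are too small to be searched for outlying samples.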

How the results depend on the processing

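Without the replicate block, 404 genes were higher and 154 lower in CdxKO, and higher genes made up 72.4% of calls against 52.9% with it. In that fit 86 genes were called in CdxKO only, 170 in T/BraKO only, 7 in both in opposite ways, 0 in both in the same way and 295 in neither, and 553 of the 2187 calls were kept. At an adjusted p of at most 0.01 these classes held 245, 437, 45, 7 and 654 genes, with 808 genes higher and 580 lower. With an absolute log2 fold change above 1 they held 53, 113, 8, 1 and 177, with 272 higher and 80 lower. The 6 mutant libraries fitted alone gave 779 higher and 523 lower. TMM factors gave 1156 and 1063, the filter on low counts 1184 and 1025, and edgeR 1490 and 1242, of which 2101 were among the 2187. Leaving out a library or all libraries of a replicate number gave 483 to 1109 higher and 313 to 914 lower genes. It gave 109 to 484 genes called in CdxKO only, 263 to 667 in T/BraKO only, 18 to 115 in opposite ways, 3 to 15 in the same way and 335 to 1348 in neither. Among single libraries, the number of higher genes fell to 763, 718, 756 and 751 without CdxKO replicate 1, CdxKO replicate 3, T/BraKO replicate 1 and T/BraKO replicate 3. The number of lower genes fell to 566, 577 and 532 without CdxKO replicate 2, CdxKO replicate 3 and T/BraKO replicate 3. The number of genes called in opposite ways was 32, 46 and 29 without WT replicates 1, 2 and 3, 46 and 53 without CdxKO replicates 1 and 3, and 48 without T/BraKO replicate 1. The number called in CdxKO only was 191 and 231 without WT replicates 1 and 2 and 156 without CdxKO replicate 1, and that in T/BraKO only was 396 and 356 without WT replicates 1 and 2 and 469 and 395 without T/BraKO replicates 2 and 3. The cause was not tested, and fewer libraries also lower the power of the test. No named gene changed direction with a call among 258 named genes and 4351 gene and setting combinations. Of these combinations, 292 lost a call and 50 gained one. Only named genes called in the main fit, with the block and all libraries, could lose a call. The 292 losses are therefore a larger share of the combinations of those genes than of all 4351. Of the named genes called in the main fit, 67 were called in every setting and the rest lost the call in some setting. Counts of genes by list without replicate 1 and without the block were added after the data were seen. At low counts the error was wide, for example for Hoxa4, with an SE of 1.04 on the log2 scale.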

Other observations

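Interferon-inducible GTPase genes, which encode cell-autonomous defence proteins, were not in any list and were looked at after their values were seen. All 13 that could be tested were higher in CdxKO relative to T/BraKO, against 7.75% of all genes tested, and 9 of the 13 were called in T/BraKO only. Their median log2 fold change was 2.88 between the mutants, -2.32 for T/BraKO against WT and 0.53 for CdxKO against WT. Gbp2 had 1672, 1246 and 986 normalised counts in CdxKO, 929, 1131 and 560 in WT and 184, 274 and 101 in T/BraKO, and Iigp1 had 130, 30.4 and 73.4 in CdxKO and 2.21, 3.66 and 3.59 in T/BraKO. Neither gene overlapped between the mutants. Without the block, 13 were still higher, and without the libraries of a replicate number 11 or 12 were. Guanylate-binding protein genes lie in clusters of similar copies, so the split of reads between them is uncertain.

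Annexin and collagen genes were also looked at after their values were seen. Of 10 annexin genes tested, which encode calcium-dependent membrane-binding proteins, 6 were higher and 1 lower in CdxKO, and 5 of these 7 were called in CdxKO only. Anxa1 had 989, 844 and 566 normalised counts in CdxKO and 378, 414 and 196 in T/BraKO. Of 38 collagen chain genes, 10 were higher in CdxKO and none lower. The median log2 fold change was 0.37 for the annexin genes and 0.15 for the collagen genes. Among all genes tested, 7.75% were higher and 6.9% lower. Col1a1 and Col1a2, which make type I collagen, and Col8a1 were called in opposite ways, with Col1a1 at 2010, 2952 and 1377 in CdxKO, 1202, 1532 and 626 in WT and 729, 605 and 353 in T/BraKO. Without the block, 1 annexin and 4 collagen genes were higher. The embryonic stem cells had been propagated on feeders, per the study's methods. The 6 fibroblast markers, which include Col1a1 and Col1a2, summed to 42.0 to 78.0 TPM in CdxKO, 32.8 to 53.8 in T/BraKO and 34.6 to 58.4 in WT. Their part in the collagen values was not tested.

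Chromosome 11 held 174 genes higher and 63 lower in CdxKO among 1229 tested, 19.3% called. Chromosome 5 held 59 higher and 98 lower among 929 tested, 16.9% called. Chromosomes 6 and X lay between these, with 17.8% and 17.6% called. The share over all genes tested was 14.6%, with 7.75% higher and 6.9% lower. Over genes with a mean of at least 50 normalised counts, the median log2 fold change of CdxKO minus T/BraKO was 0.044 on chromosome 11. It was 0.016 on chromosome 8 and between -0.056 and -0.003 on the other autosomes and X. Against WT, the chromosome 11 median was 0.014 in CdxKO and -0.033 in T/BraKO. Chromosome 8 had medians of -0.030 in CdxKO and -0.050 in T/BraKO. Chromosomes 18 and X had -0.006 and -0.001 in T/BraKO against WT. The remaining autosomes had positive medians in T/BraKO, from 0.004 on chromosome 14 to 0.046 on chromosome 15. Whether the values of chromosomes 8 and 11 follow the line or the mutation was not tested.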
